A study of Mus musculus with 2 samples.

Results

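Troponins and tropomyosins are the calcium switch of the striated muscle thin filament, and the 10 genes described here encode their slow and fast forms. The genes were chosen by name, as Tnni1, Tnni2, Tnnt1, Tnnt2, Tnnt3, Tnnc1, Tnnc2, Tpm1, Tpm2 and Tpm3. The array reads them with 19 probes of 60 bases, and all 19 were well above background on both arrays, so no member was lost to a filter on low values. They are 10 of 13665 named genes measured on both arrays, of which 921 carry a sequence ID in place of a symbol.

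The N2ICD sample was tibialis anterior, a limb muscle made mainly of fast fibres, from an adult male C57BL/6 mouse transgenic for activated Notch2 (N2ICD). The control sample was the same muscle of an adult male C57BL/6 mouse labelled only as control. The labels name neither the promoter or cells that drive the transgene nor any allele of the control, and do not say whether RNA of several animals was pooled. Total RNA was labelled with Cy3 and hybridised to 1 array per group, to compare transcripts between Notch2-activated and control muscle. A single array per group allows no test, and genotype, animal, dissection and array cannot be told apart.

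In resting muscle, tropomyosin lies along the actin filament and hinders myosin from binding. Calcium binds troponin C, troponin I (the inhibitory subunit) then lets go of actin, and troponin T (the tropomyosin-binding subunit) passes the change on to tropomyosin. Slow fibres of adult limb muscle use Tnni1, Tnnt1, Tnnc1 and a Tpm3 product, and fast fibres use Tnni2, Tnnt3, Tnnc2 and a Tpm1 product. Tpm2 is made by both fibre types, and Tnnt2 is the cardiac troponin T that immature skeletal muscle also makes. Tpm1 and Tpm3 also give non-muscle tropomyosins through alternative exons and starts, so their probes can read different products of 1 gene.

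Probes of the slow troponins I and C and of the tropomyosins that differed most are shown with their positions on mm9, as are the Tnnt2 probe and a Tnnt3 probe, which hold a related stretch. The Tnnt1 probes, which also differed, hold the letters of a polyadenylation signal and are not printed. The Tnni1, Tnnc1, Tnnt2 and Tnnt3 probes span more than 60 bases of genome, so each crosses an intron. Capitals mark the longest run shared by the Tnnt2 and Tnnt3 probes, 8 bases long. Aligned on that run, these 2 probes were identical at 29 of 44 bases. All sequences run 5′ to 3′ and come from the scanner files.
Tnni1 probe, chr1:137705328-137706203, plus strand: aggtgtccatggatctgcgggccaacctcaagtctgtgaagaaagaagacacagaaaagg
Tnnc1 probe, chr14:32023360-32023776, plus strand: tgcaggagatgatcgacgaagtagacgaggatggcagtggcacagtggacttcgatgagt
Tnnt2 probe, chr1:137747976-137748288, plus strand: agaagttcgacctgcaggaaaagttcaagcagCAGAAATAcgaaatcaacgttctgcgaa
Tnnt3 probe at position 705, chr7:149698500-149700262, plus strand: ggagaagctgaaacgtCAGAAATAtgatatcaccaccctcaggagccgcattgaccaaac
Tpm3 probe at position 227, chr3:89877669-89877728, plus strand: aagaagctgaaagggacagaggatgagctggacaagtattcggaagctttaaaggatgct
Tpm3 probe at position 681, chr3:89892985-89893044, plus strand: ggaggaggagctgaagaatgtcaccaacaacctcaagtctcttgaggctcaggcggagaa
Tpm1 probe at position 659, chr9:66880274-66880333, minus strand: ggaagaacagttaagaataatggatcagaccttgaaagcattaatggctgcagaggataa

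Signals are the scanner software's processed signals. Differences are log2, N2ICD minus control, after each array was scaled to its 75th percentile, a signal of 190 in N2ICD and 169 in control. Leaving out control spots, each array had 59305 spots, of which 24982 in N2ICD and 24916 in control were well above background and 0 were saturated. Each member probe had 1 spot per array. Spot noise is the SD of the log2 difference between spots of 1 probe, from 240 repeated probes, and was 0.24, 0.13, 0.08 and 0.05 in 4 level groups from dim to bright. The repeated probes reached a log2 level of 10.9 above the 75th percentile. The Tnni2, Tnnc2 and Tnnt3 probes and the Tpm1 probe at position 1051 lie above that level and took the noise of the brightest group. Spot noise holds no spread between animals. The scanner software's own error model is wider for most member probes. It is slightly narrower for the Tnnt2 probe, the Tnnt1 probe at position 970 and the Tpm1 probe at position 659. It gave member signals an error of up to 16.5%, and log2 differences of members an error of 0.20 to 0.30.

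**Figure D1:**
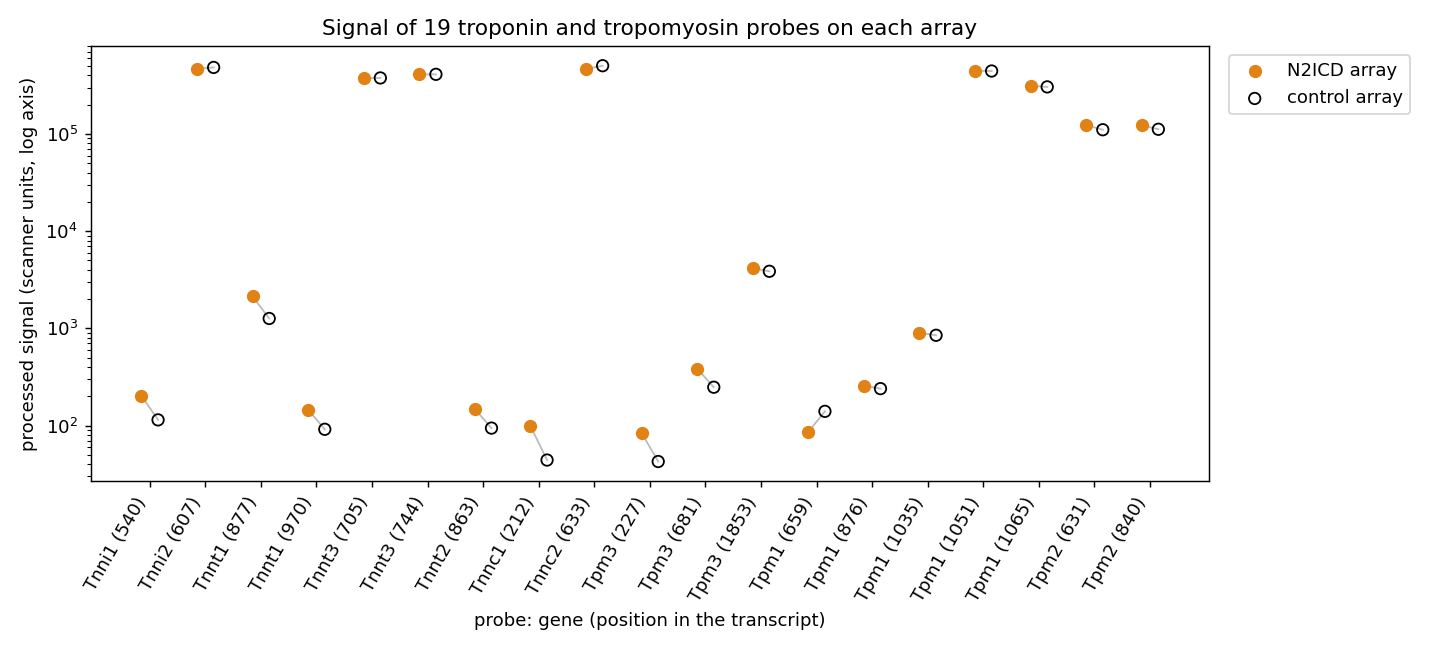
Processed signal (log axis, scanner units) of the 19 member probes, each named by gene and position in its transcript. Filled points are the N2ICD array and open points the control array, joined by a grey line. The Tnni1, Tnnc1, Tnnt1 and Tnnt2 probes and the Tpm3 probes at positions 227 and 681 have the N2ICD point clearly above, and the Tpm1 probe at position 659 has it below.

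By the mean over their probes, all 4 slow isoforms were higher in the N2ICD array, by 0.40 to 0.99 on the log2 scale, although the brightest of the 3 Tpm3 probes was at -0.07. All 4 fast isoforms were slightly lower, by 0.18 to 0.28, though all 4 were higher on a spike-in scale. After quantile normalization Tnni2 was at 0.01. The Tpm1 mean of -0.27 includes a dim probe, at position 659, with -0.88, and the median over the Tpm1 probes was -0.13. The median difference was 0.60 over the slow isoforms and -0.24 over the fast isoforms, beside 0.01 over all 13665 genes. In each of the 4 subunits the slow isoform had the higher difference of the pair by these means. This contrast is a difference of 2 differences, in which a scaling constant cancels. None of these values has a replicate check. In RNA of whole muscle, fewer fibres of a type and less RNA per fibre cannot be told apart.

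Troponin I showed the contrast with 1 probe per isoform. The slow Tnni1 had a signal of 202 in N2ICD and 114 in control. Its log2 difference was 0.65, a 1.57-fold higher level, with a spot noise of 0.13 and a scanner error of 0.22. The fast Tnni2 (chromosome 7, 149630251 to 149630310, plus strand) had signals of 469483 in N2ICD and 484181 in control. Its difference of -0.22 was close to its scanner error of 0.20. Tnni1 minus Tnni2 was 0.87, with a spot noise of 0.14 and a scanner error of 0.30.

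Troponin T was the subunit with probes in duplicate for both isoforms, and these probes gave like values. The slow Tnnt1 was read at positions 877 (chromosome 7, 4456265 to 4456324, minus strand) and 970 (4456172 to 4456231). At position 877 the signals were 2136 in N2ICD and 1263 in control, and at position 970 they were 145 in N2ICD and 91.4 in control. These gave differences of 0.59 and 0.49, with a mean of 0.54, although the probes lie in different level groups. The fast Tnnt3 was read by 2 probes that share 27 bases and are not independent. At position 705 its signals were 375789 in N2ICD and 377401 in control, and at position 744 they were 409830 in N2ICD and 411263 in control. Both Tnnt3 probes gave -0.18, inside a scanner error of 0.20. All 4 combinations of a Tnnt1 with a Tnnt3 probe put the slow isoform above the fast, by 0.67 to 0.76. The gene means differed by 0.72, with a spot noise of 0.13 and a scanner error of 0.21. Both errors take the probes of a gene as independent, which the Tnnt3 probes are not.

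The cardiac and developmental troponin T gene Tnnt2 was higher in N2ICD, like the slow genes. Its signal was 148 in N2ICD and 94.1 in control, a log2 difference of 0.48 at a spot noise of 0.24. The related Tnnt3 probe shown above differed the other way, at -0.18. Whether the dim Tnnt2 probe reads Tnnt2 alone was not tested. Cardiac troponin I, Tnni3, was well above background in neither sample, with signals of 6.54 in N2ICD and 6.09 in control.

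Troponin C had the widest slow to fast contrast of the 4 subunits, read on the slow side by 1 dim probe. Tnnc1, the calcium sensor of slow and cardiac muscle, had a signal of 99.05 in N2ICD and 44.1 in control. Its difference was 0.99, a 1.99-fold higher level, with a spot noise of 0.24 and a scanner error of 0.27. It was 0.49 after normexp background correction, which adds an offset and shrinks differences of dim probes. The fast Tnnc2 (chromosome 2, 164602661 to 164602720, minus strand) had signals of 467336 in N2ICD and 504224 in control, a difference of -0.28. Tnnc1 minus Tnnc2 was 1.28, with a spot noise of 0.25 and a scanner error of 0.34, and 0.76 after normexp.

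**Figure D2:**
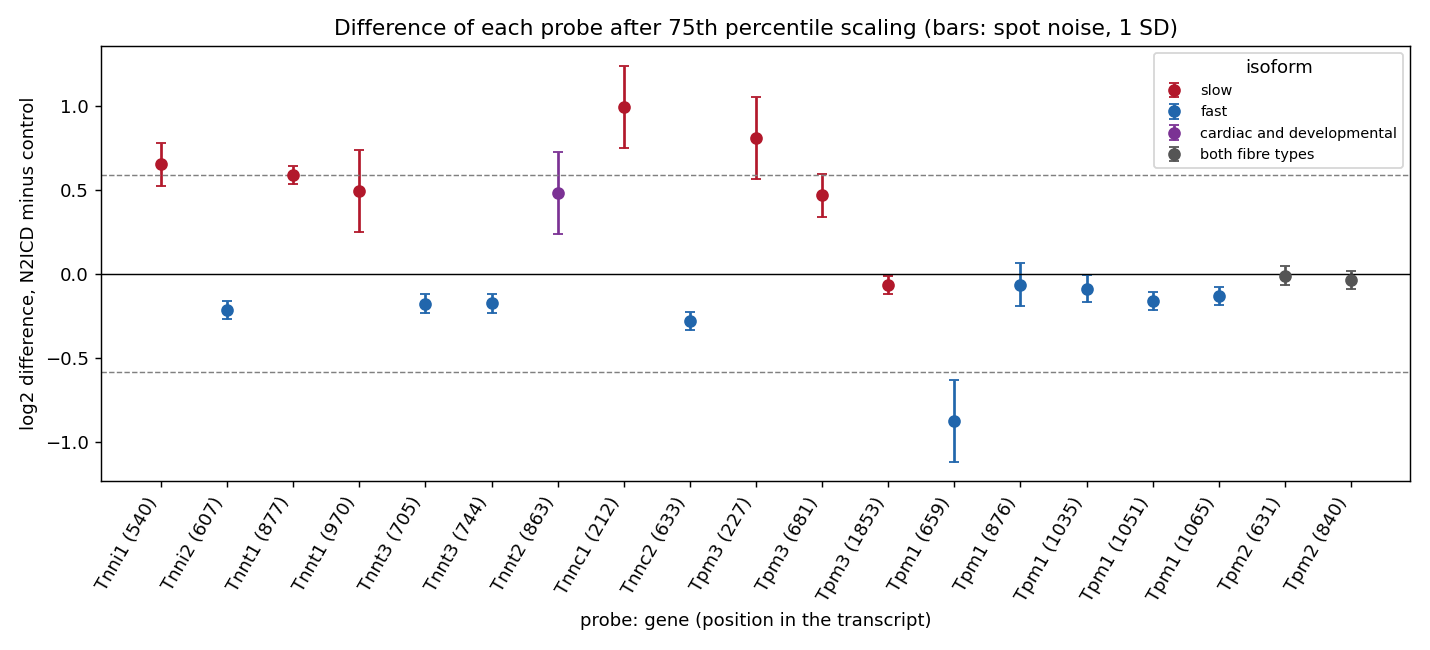
Log2 difference, N2ICD minus control, of each of the 19 probes, with bars of 1 SD of spot noise. Colours give the isoform and dashed lines mark 1.5-fold. Of 7 slow probes 6 lie above 0, and 9 of 9 fast probes lie below 0, most of them close to it. Over all measured genes 50.7% lie above 0. Probes of 1 gene are not replicates, and 5 of the 9 fast probes are Tpm1 probes. On the spike-in scale the 4 fast genes lie above 0.

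Tropomyosin showed differences between probes of 1 gene that the gene means hide. The slow gene Tpm3 had 3 probes. At position 227, the probe listed with RefSeq transcript variant 1 and no other RefSeq transcript, the signals were 84.1 in N2ICD and 42.6 in control. This was a log2 difference of 0.81 (1.75-fold), with a spot noise of 0.24 and a scanner error of 0.30, and it was 0.32 after normexp. At position 681, listed with variant 4 alone, the signals were 386 in N2ICD and 248 in control, a difference of 0.47. The third probe lay at position 1853 (chromosome 3, 89904428 to 89904487, plus strand). It was listed with 4 RefSeq transcripts, as many as the file gives for a probe, and variants 1 and 4 were among them. Its signals were 4156 in N2ICD and 3865 in control, and its difference was -0.07. The Tpm3 mean of 0.40 therefore stands for probes that range from -0.07 to 0.81.

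The fast gene Tpm1 had 5 probes at 4 separate places. The probes at positions 1051 and 1065 overlap (chromosome 9, 66875796 to 66875855 and 66875782 to 66875841, minus strand) and are the bright ones. Their signals were 447835 and 313597 in N2ICD, against 444808 and 305338 in control, and their differences were -0.16 and -0.13. The probe at position 1035 (66872131 to 66872190) had signals of 899 in N2ICD and 849 in control, a difference of -0.09. The probe at position 876 (66871166 to 66871225) had 258 in N2ICD and 240 in control, a difference of -0.07. These 4 probes lay inside their scanner errors of 0.20 to 0.21.

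The remaining Tpm1 probe, at position 659, differed most of all 9 fast probes. Its signals were 86.0 in N2ICD and 140 in control, a log2 difference of -0.88, or 1.83-fold lower, with a spot noise of 0.24 and a scanner error of 0.24. It was -0.50 after normexp. The file lists 3 RefSeq transcripts for it, of which at least 1 is also listed for the bright pair. The 5 Tpm1 probes spanned 0.81 on the log2 scale and the 3 Tpm3 probes 0.88, beside a median span of 0.18 over 3158 genes with several measured probes. In 95.3% and 96.4% of those genes the span was smaller than in Tpm1 and in Tpm3. Those genes were not matched for number of probes or signal level, and a span grows with both probe number and noise. The most extreme probe of each gene, Tpm1 at position 659 and Tpm3 at position 227, was in the dimmest group.

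Tpm3 minus Tpm1 was 0.67 by gene means, with a scanner error of 0.17, and 0.60 by the median over probes. That error takes the probes of a gene as independent and leaves out the spread between them. The SD between probes was 0.44 in Tpm3 and 0.34 in Tpm1. With the brightest probe of each gene it was 0.09, since those are the Tpm3 probe at 1853 and the Tpm1 probe at 1051. With the Tpm3 probe of variant 1 against the bright Tpm1 pair, a choice made after the values were seen, it was 0.96 with a spot noise of 0.25. None of these probes is known to read a single transcript: each of the bright pair is listed with 3 RefSeq transcripts, and the Tpm3 probe shares an Ensembl transcript with the one at 681. Over the 15 combinations of a Tpm3 with a Tpm1 probe the contrast ran from -0.001 to 1.68, and 14 were above 0. These combinations reuse the same 3 Tpm3 and 5 Tpm1 probes and are not independent. The Tpm3 probe at 1853, at -0.07, lay close to all Tpm1 probes but that at 659, which were at -0.07 to -0.16.

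Tpm2, which both fibre types make, differed little between the arrays on the 75th percentile scale. Its probes at positions 631 (chromosome 4, 43532262 to 43532321, minus strand) and 840 (43531276 to 43531335) had signals of 123638 and 122838 in N2ICD, against 110631 and 111855 in control. The differences were -0.01 and -0.04, both inside the spot noise of 0.05. Tpm4, a tropomyosin of non-muscle cells, had signals of 1177 in N2ICD and 1159 in control, a difference of -0.15.

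**Figure D3:**
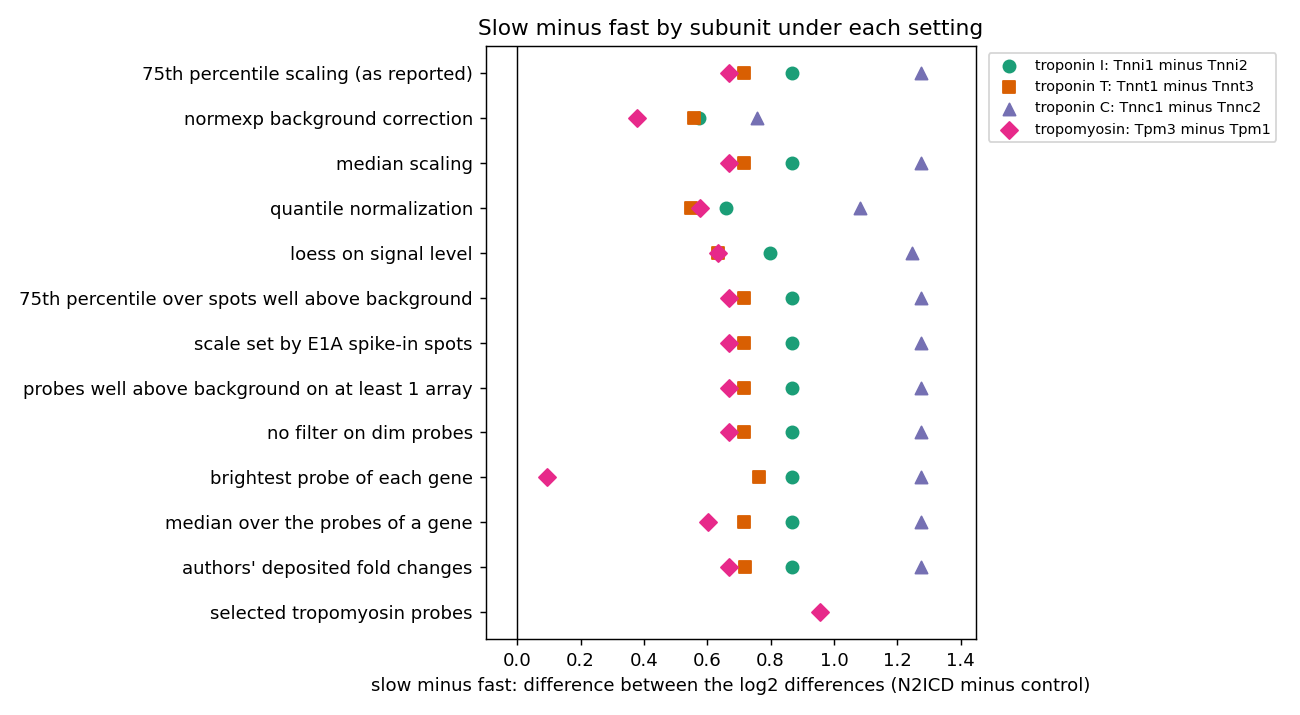
Slow minus fast contrast of each subunit (log2) under each processing setting, 1 marker shape per subunit, with the reported setting in the top row. The lowest point, 0.09, is tropomyosin read by the brightest probe of either gene, and 5 rows, which only rescale or filter dim probes, hold the reported values by construction.

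Against fold thresholds the members were modest. Of the 10 genes, 2 reached 1.5-fold upward in N2ICD, Tnnc1 and Tnni1, where 5.08% of all measured genes did. None reached 1.5-fold downward, where 4.84% of all genes did, so that 2 of 10 passed in either direction, against 9.92% of all genes. None reached 2-fold, where 1.42% of all genes were up, 0.893% down and 2.31% either, and Tnnc1 stopped just short at 1.99-fold. Of the 10, 5 lay above 0 and 5 below, and 50.7% of all genes lay above 0. Over all genes 694 reached 1.5-fold upward and 661 downward, but 911 and 490 with median scaling and 5651 and 83 on the spike-in scale. After normexp background correction 0 members reached 1.5-fold, where 359 of all 13665 genes did so upward and 233 downward. In the authors' deposited table Tnnc1 was 2.01-fold up and Tnni1 1.59-fold up.

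Signal level moved with the difference at the bright end of the array, where the 3 fast troponins lie. Tnni2, Tnnt3 and Tnnc2 belong to the 57 genes with a mean level of at least 10 above the 75th percentile on the log2 scale. These 57 genes had a median difference of -0.22, and 55 of them lay below 0. Quantile normalization, which removes a trend with level, gave 0.01 for Tnni2, -0.01 for Tnnt3 and -0.03 for Tnnc2. It sets the difference of any probe with the same rank on both arrays to 0, and these probes ranked near the top on both. The Tnnt3 probe at position 705, for instance, ranked 13 on each. Values near 0 after it therefore do not show what the trend contributes. The part of this trend in the fast values was not tested. The slow members lie where the trend was small: 4217 genes with levels from -1 to 1, among them Tnni1, had a median of -0.02, and 6.14% reached 1.5-fold upward. The 2498 genes below -1, among them Tnnc1, had a median of -0.07, and 7.57% reached 1.5-fold upward. After loess on signal level the 57 brightest genes still had a median of -0.14, and after quantile normalization they had -0.03. With loess the contrasts were 0.80 for troponin I, 0.63 for troponin T, 1.25 for troponin C and 0.63 for tropomyosin. With quantile normalization they were lower, at 0.66 for troponin I, 0.55 for troponin T, 1.08 for troponin C and 0.58 for tropomyosin.

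**Figure D4:**
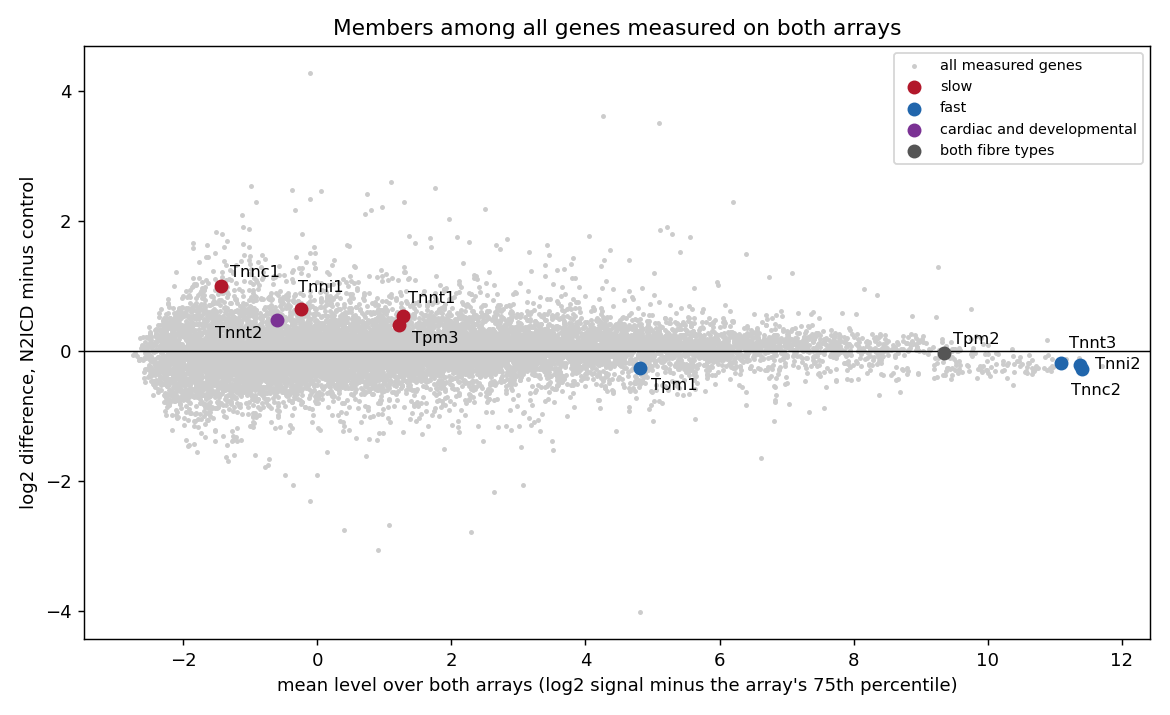
Log2 difference, N2ICD minus control, against mean level of all 13665 measured genes (grey), with the 10 members coloured by isoform. The slow members sit above 0 at low and middle levels, and Tnni2, Tnnt3 and Tnnc2 sit at the bright end, where 55 of 57 genes lie below 0 on this scale, though Tnni2, Tnnt3 and Tnnc2 lie above 0 on the spike-in scale.

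Direction in absolute terms depended on the scale. A scale set by 7 E1A spike-in probes moved all genes up by 0.52. On it Tnni2 stood at 0.31, Tnnt3 at 0.34, Tnnc2 at 0.24 and Tpm1 at 0.26, so that the fast isoforms were no longer lower in N2ICD. The slow isoforms stood at 0.92 for Tpm3 to 1.52 for Tnnc1. The slow minus fast contrasts keep the same value on this scale.

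Troponin I and T genes lie close together in pairs, and the measured members of a pair differed in the same direction, although both genes of the fast pair were higher in N2ICD on the spike-in scale. Tnni1 and Tnnt2, whose probes are 41.8 kb apart on chromosome 1 of mm9, had differences of 0.65 and 0.48, and Lad1, which was not measured, lies between them. The fast pair Tnni2 and Tnnt3, 68.2 kb apart on chromosome 7, had -0.22 and -0.18. Between them lie Lsp1, a leukocyte protein, at -0.78 and Prr33 at 0.12. Tnnt1, at 0.54, lies 15.7 kb from Tnni3, which was not well above background. Of 65 other genes with a symbol within 100 kb of a member 41 were measured, with a median of 0.02. Of these, 1 reached 1.5-fold upward and 1 downward, against 5.08% and 4.84% of all genes.

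The 3 slow troponin genes were all higher in N2ICD, so their promoters are shown: the 250 bases before the RefSeq start on GRCm38.p6, for Tnni1 before the more upstream of its 2 starts. Capitals mark CATTCC (the MCAT element of muscle promoters, bound by TEAD factors) and TGGGAA (the core of the site of RBPJ, the DNA-binding partner of Notch), read on both strands.
Tnni1 promoter, chr1:135799171-135799420, plus strand: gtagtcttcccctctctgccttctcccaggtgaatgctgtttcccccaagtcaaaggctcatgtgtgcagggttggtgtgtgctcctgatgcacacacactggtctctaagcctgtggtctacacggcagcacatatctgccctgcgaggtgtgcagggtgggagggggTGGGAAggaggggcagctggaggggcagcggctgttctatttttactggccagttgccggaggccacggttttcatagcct
Tnnt1 promoter, chr7:4515976-4516225, minus strand: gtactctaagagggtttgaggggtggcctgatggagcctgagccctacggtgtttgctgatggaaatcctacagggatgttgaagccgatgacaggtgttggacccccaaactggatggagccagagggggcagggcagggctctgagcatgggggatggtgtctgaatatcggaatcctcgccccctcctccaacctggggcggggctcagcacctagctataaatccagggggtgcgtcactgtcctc
Tnnc1 promoter, chr14:31208062-31208311, plus strand: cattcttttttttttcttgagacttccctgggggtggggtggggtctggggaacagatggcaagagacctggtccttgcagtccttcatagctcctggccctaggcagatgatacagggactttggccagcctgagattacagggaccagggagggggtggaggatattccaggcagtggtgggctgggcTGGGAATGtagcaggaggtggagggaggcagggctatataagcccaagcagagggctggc

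RefSeq windows were matched for 8 of the 10 members, 11 windows in all, and not for Tnni2 and Tnnt3. TGGGAA was found in 4 of the 11 windows, of Tnnc1, Tpm1 and both overlapping windows of Tnni1, and in 21.6% of 32851 windows of the same length. It starts 81 bases before the start in Tnni1 and 60 bases before it in Tnnc1. CATTCC was found in 3 windows, of Tnnc1, Tnnt2 and Tpm1, and in 12.6% of all windows. In Tnnc1 it overlaps TGGGAA, as the 8 capitals show. The E-box CANNTG, bound by myogenic factors such as MyoD, was in 11 of 11 windows and in 66.2% of all. TATAAA was in the Tnnt1 window, 30 bases before the start, and in 12.4% of all, and the MEF2 element was in 0 of 11 and 2.92% of all. A match says nothing of binding, and the members with TGGGAA hold both slow and fast genes.

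The other contractile genes were split the same way, with exceptions on both sides. Of 13 other slow contractile genes measured, 7 reached 1.5-fold upward and 2 downward, where 5.08% and 4.84% of all genes did, and the list median was 0.96, or 1.48 on the spike-in scale. Myh7, the slow myosin heavy chain, was at 2.21, a larger difference than that of any slow member. The Z-disc protein Myoz2 was at 1.80, the muscle LIM protein Csrp3 at 1.75 and the ankyrin repeat protein Ankrd2 at 1.20. The 2 that were lower, named after their values were seen, were the slow light chain Myl2 at -1.15 and Casq2, a calcium store protein, at -0.60. Of 13 other fast contractile genes, 1 reached 1.5-fold upward and 0 downward, against the same shares, and the median was -0.21, or 0.31 on the spike-in scale. The fast member with the lowest value, Tnnc2 at -0.28, lies inside their range, in which the calcium store protein Casq1 was at -0.55, the fast light chain Mylpf at -0.47 and the calcium buffer Pvalb at -0.42, and the IIa myosin Myh2 stood apart at 1.30.

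Among 20 measured genes of the thin filament and its ends, 4 reached 1.5-fold upward and 1 downward, where 5.08% and 4.84% of all genes did, with a median of 0.12, or 0.65 on the spike-in scale. Actc1, the cardiac actin, had signals of 1327 in N2ICD and 19171 in control, a difference of -4.03. Xirp2 and Xirp1, actin-binding repeat proteins, were at 2.03 and 1.34. Lmod2, which adds actin to the pointed end of the filament, was at 1.22. The adult skeletal actin Acta1, named after its value was seen, was at -0.11.

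**Figure D5:**
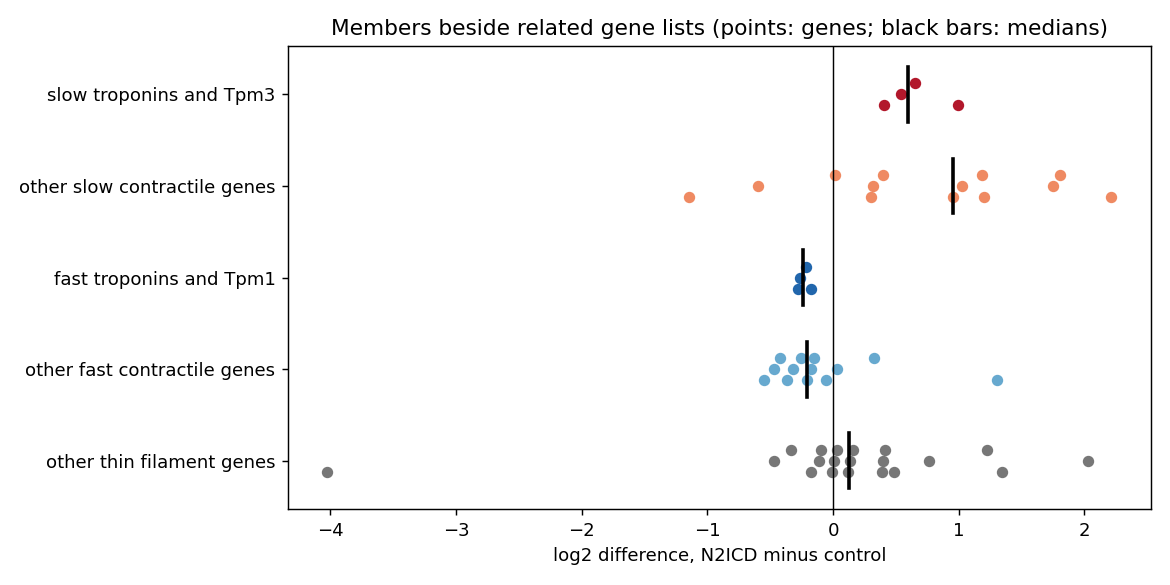
Log2 difference, N2ICD minus control, of the slow members (Tnni1, Tnnt1, Tnnc1, Tpm3), the fast members (Tnni2, Tnnt3, Tnnc2, Tpm1) and the measured genes of 3 related lists. Points are genes and black bars are list medians, at 0.60, 0.96, -0.24, -0.21 and 0.12 from top to bottom, with the fast ones at 0.28 and 0.31 on the spike-in scale.

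The tissue label was checked with markers, since heart muscle uses Tnnc1, Tnnt2 and Tpm1, and smooth muscle and fibroblasts use tropomyosins of the same genes. All 8 skeletal muscle fibre markers were measured, with a median of -0.16. Of 8 heart markers, 2 were measured on both arrays, with a summed signal of 3210 in N2ICD and 3298 in control. Nppb, Myl7, Tnni3, Tbx5 and Nkx2-5 were not well above background on either array, and Nppa was so on the control array alone. Of 7 smooth muscle markers 6 were measured, with a median of -0.03 and summed signals of 20193 in N2ICD and 16266 in control. All 6 fibroblast markers were measured, with a median of -0.27 and summed signals of 91669 in N2ICD and 100409 in control. Summed signals were not scaled between the arrays, unlike the medians. On the spike-in scale the medians were 0.36 for skeletal muscle fibre, 0.49 for smooth muscle and 0.25 for fibroblast markers. The part of heart, smooth muscle and fibroblast cells in the tropomyosin values was not tested.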

How the data were processed

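Values were computed from the scanner files of 1 N2ICD and 1 control array, grouped by the genotype labels. The authors deposited spot intensity values from Agilent Feature Extraction 10.10.1.1, background-subtracted and detrended within each array, per the file headers. Their deposited table gives an unsigned fold (ratio), an intensity and a log2 value per probe. The making of that table is not stated in these sources. Per the file headers, coordinates of probes are on mm9.

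From each log2 processed signal its array's 75th percentile (control spots left out) was subtracted. Also left out were 215 spots with the scanner software's flags for non-uniformity or population outliers. Each gene took the mean of those of its probes that both arrays measured well above background. Genes were named through RefSeq accessions (GRCm38.p6) where these matched 1 symbol, and by the files' names otherwise. Members, lists and alternatives were chosen with earlier results of these data known. Named genes were the 10 members, Tnni3, Tpm4 and up to 4 measured genes per list with the largest absolute difference, of which 1 is not reported here; others are said to be named after their values were seen or are neighbours and markers. The steps were tested on simulated data. With 1 array per group no p-value was computed. Normexp (offset 50), quantile and loess used limma 3.58.1 under R 4.3.3, and other steps used pandas 2.3.3, numpy 2.4.6 and Python 3.11.15.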

Additional observations from a re-analysis of the deposited data

How the results depend on the processing

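Of 11 other settings, 5 only rescale or filter dim probes and could not move the slow minus fast contrasts. The contrasts were above 0 for all 4 subunits under the other settings. Of these, the brightest probe bears on troponin T and tropomyosin alone, and the median over probes on tropomyosin alone. The authors' deposited values of the member probes differ from the main ones by a nearly constant 0.0146 to 0.0157, so they could hardly move the contrasts. Normexp background correction lowered them to 0.57 for troponin I, 0.56 for troponin T, 0.76 for troponin C and 0.38 for tropomyosin, the slow median to 0.43 and the fast median to -0.16, and left 0 members at least 1.5-fold higher. Quantile normalization gave 0.66 for troponin I, 0.55 for troponin T and -0.023 for the fast median, and turned Tnni2 to 0.013. For tropomyosin the brightest probe of each gene gave 0.095, with Tpm3 itself at -0.067, and the Tpm3 probe at position 227 against the bright Tpm1 pair, chosen after seeing the data, gave 0.96. With spike-in scaling the median of the slow members was 1.12 and the fast median turned to 0.28, with Tnni2 at 0.31, Tnnt3 at 0.34, Tnnc2 at 0.24 and Tpm1 at 0.26. On that scale 5 of the 10 members were at least 1.5-fold and 4 at least 2-fold higher, where 5651 and 1059 of all 13665 genes were. The fast median was -0.17 with median scaling, -0.14 with loess, and -0.20 both with the brightest probe and with the median over probes. With median scaling, quantile normalization, loess and the authors' deposited table Tnnc1, 1 member, was at least 2-fold higher, as were 200 to 227 of all genes. Median-scaled, spike-in, quantile and loess values differ from the main ones by normalization alone. Median and spike-in scaling move all genes by a constant, while quantile and loess move them by an amount that varies with level. Normexp starts from the mean spot signal and its background, not from the processed signal. The cause of the other shifts was not tested. Over all genes, 694 upward and 661 downward at 1.5-fold became 359 and 233 after normexp, 5651 and 83 with spike-in scaling, 1047 and 1039 with probes above background on 1 array enough, and 2215 and 2452 with no filter. The 194 and 122 at 2-fold became 81 and 43, 1059 and 22, 364 and 328, and 835 and 968 in the same order. A move was counted as such when it exceeded 1 SD of spot noise. No paired analysis was possible because each group has 1 sample. The single array per group and the low signal of Tnnc1, Tnnt2 and the Tpm3 and Tpm1 probes at positions 227 and 659 limit these values.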

Other observations

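Most regulators of slow and fast fibre genes stayed within 1.5-fold between the arrays. Of 24 measured, 2 reached 1.5-fold upward in N2ICD and 0 downward, against 5.08% and 4.84% of all measured genes, and the list median was 0.10, or 0.62 on the spike-in scale. Mef2c, a transcription factor of muscle genes, was at 0.67, with the coactivator Ppargc1a at 0.62 and the TEAD cofactor Vgll2 at 0.57. Prox1 and Vgll3 were not well above background on either array.

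Splicing factors known for muscle transcripts are of interest beside the Tpm1, Tpm3 and Tnnt3 genes, whose transcripts are spliced in many forms. Of 13 measured, 2 reached 1.5-fold upward and 0 downward, where 5.08% and 4.84% of all genes did, with a median of -0.05, or 0.47 on the spike-in scale. Mbnl1 was at 0.85 and Qk at 0.71 over 5 probes, while Ptbp1 was at -0.55 and Srsf1 at 0.46. Their relation to the differences between tropomyosin probes was not tested.

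A further probe within the Tpm1 locus carries no gene symbol in the scanner files (chromosome 9, 66876655 to 66876714). It had signals of 107 in N2ICD and 92.3 in control, a log2 difference of 0.04 at a spot noise of 0.24, and did not enter the Tpm1 values. The longest run shared by probes of different members was 13 bases, between the Tnni1 probe and the Tpm3 probe at position 681 and between both Tnnt3 probes and the Tpm2 probe at position 840.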
